A study of Mus musculus with 12 samples.

Results

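Ribosome biogenesis genes encode the nucleolar machinery that makes ribosomes. The 41 genes described here were listed by symbol, and each was read from 1 probe set, the one with the highest mean over the arrays. All 41 were on the array and passed the filter on dim genes, out of 18194 genes named and 11458 kept. RNA was measured on 12 Affymetrix mouse arrays from BL#19, a murine Burkitt lymphoma line in which CRISPR/Cas9 had been used to knock out alleles of Foxo1, a forkhead transcription factor that leaves the nucleus when AKT phosphorylates it. The line carries a mutant allele (mt, substitution T24P) and a wild-type allele (wt), and the genotypes, with 3 arrays each, were wt-/mt- with neither allele, wt-/mt+ with only the mutant one, wt+/mt- with only the wild-type one and wt+/mt+ with both. All genotypes share the parent lymphoma line. Nothing in the labels says that replicate arrays stem from different clones or cultures. The p-values therefore reflect the spread between these 12 arrays alone, which may be technical, and 1 clone may stand for a genotype.

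Ribosome production starts in the nucleolus, where RNA polymerase I transcribes the precursor of the large ribosomal RNAs. Small nucleolar ribonucleoproteins (snoRNPs) then guide methylation and pseudouridylation of this precursor, and separate sets of assembly factors fold, cut and export the small and the large subunit. MYC is a transcription factor known to activate many of these genes through the E-box, and high MYC activity is a hallmark of Burkitt lymphoma. MYC itself was not manipulated here. The mouse Myc probe set read between 4.74 and 5.21 (log2) on the 12 arrays, below every array median (6.08 to 6.25), was not kept for testing, and the labels do not say which MYC copy drives the line. The word MYC-driven is therefore background and was not measured.

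The Foxo1 transcript was lowest on the wt-/mt- arrays. It read 10.23, 9.39 and 10.34 (log2) on the wt-/mt- arrays, 11.57, 11.16 and 11.64 on wt-/mt+, 12.10, 11.92 and 11.59 on wt+/mt- and 11.56, 11.63 and 11.72 on wt+/mt+ arrays. No wt-/mt- array overlapped with another genotype, while the single losses cannot be checked this way. Some features of the arrays touch the results that follow. The wt-/mt- arrays differed most among themselves, with a median SD per gene of 0.26 (log2), against 0.11 on wt-/mt+, 0.13 on wt+/mt- and 0.10 on wt+/mt+ arrays. The ratio of 3' to 5' actin signal, a sign of RNA quality, was 2.17 and 1.71 (log2) on wt+/mt- replicates 1 and 2 and 1.06 to 1.29 on the other arrays. The spiked control bioC read 10.53 to 10.80 in wt-/mt- and 10.62 to 11.06 in wt+/mt-, against 11.31 to 11.52 in wt-/mt+ and 11.55 to 11.56 in wt+/mt+.

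Without either Foxo1 allele, part of the ribosome biogenesis genes rose, by at most 0.95 on the log2 scale. Against wt+/mt+, 11 of the 41 rose and 0 fell, where 22.1% of all kept genes were called, 12.2% higher and 9.94% lower. Against wt+/mt-, 8 rose and Utp14a fell, where 14.6% of kept genes were called, 6.35% higher and 8.22% lower. Against wt-/mt+, 15 rose and 0 fell, where 20.8% of kept genes were called, 9.75% higher and 11.1% lower. Called means an adjusted p under 0.05 in limma with Benjamini-Hochberg adjustment over all kept genes. These 3 comparisons share the wt-/mt- arrays, so their calls are not independent of each other. The genes Fbl, Gar1, Grwd1, Mybbp1a, Nop2 and Utp20 rose in all 3, while 22 of the 41 were called in none. Calls shared by the 3 comparisons were not counted over all kept genes, so these numbers do not set the list apart.

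**Figure D1:**
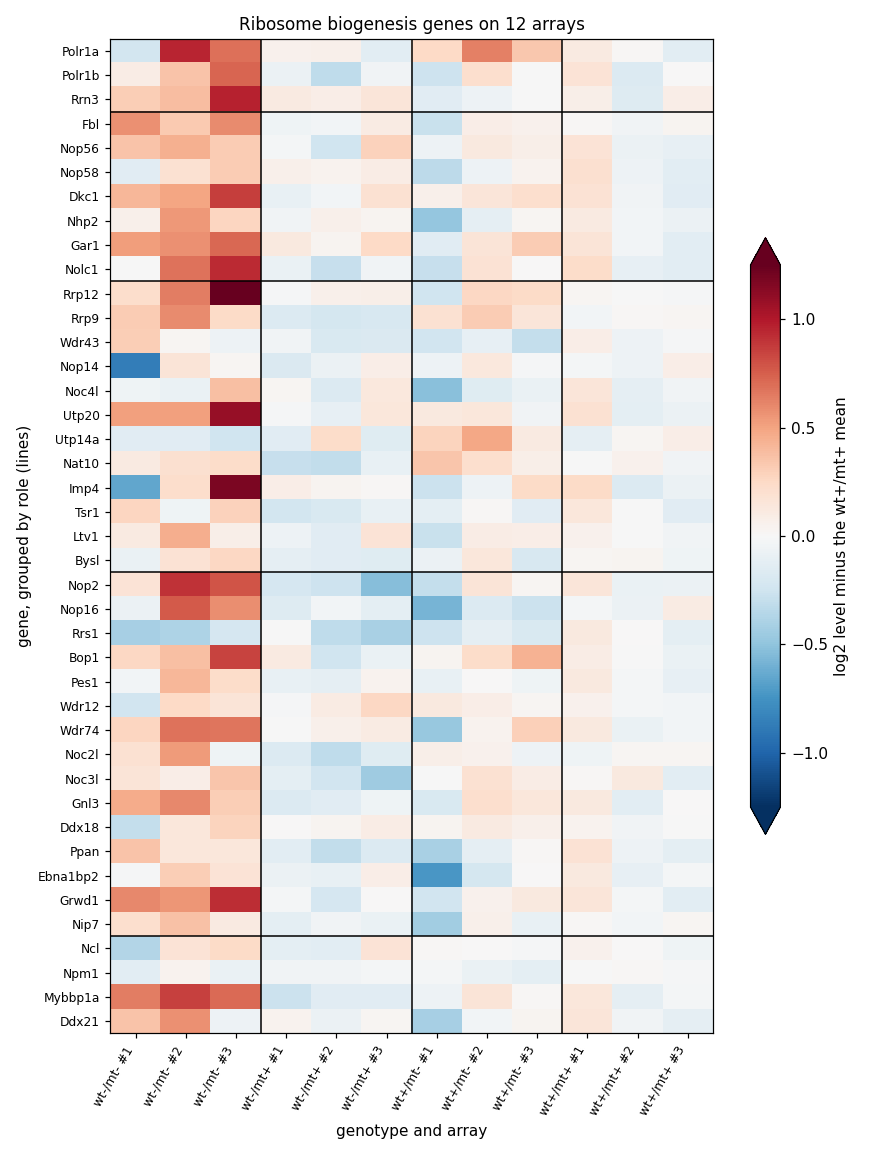
Heat map of the 41 ribosome biogenesis genes (rows, grouped by role with lines between groups) on the 12 arrays (columns, by genotype and replicate). Colour gives the log2 level minus the wt+/mt+ mean, red higher and blue lower. On wt-/mt- replicates 1, 2 and 3, 25, 37 and 35 of the 41 rows are above that mean. Rows below it on replicate 1 include Ncl, Nop14 and Imp4, and Rrs1 and Utp14a are below it on all 3.

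The shift was small and spread over most of the list. The median change was 0.25 (log2) against wt+/mt+, 0.33 against wt+/mt- and 0.41 against wt-/mt+, and the medians over all kept genes were 0.05, -0.01 and 0.01 in the same order. Changes were above 0 for 37, 35 and 35 of the 41 genes, where 55.4%, 49.1% and 51.1% of kept genes were. All 3 wt-/mt- arrays lay above all 3 wt+/mt+ arrays for 17 of the 41 (22.9% of kept genes) and below them for 2 (15.6%). Against wt+/mt- the counts were 16 above (11.8%) and 1 below (13.8%), and against wt-/mt+ 23 above (17.8%) and 0 below (17.2%). These counts are a description. Most of the 41 genes followed each other over the arrays, and they were chosen with earlier results of these data known.

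The calls depended on how the spread was estimated and on single arrays. The test pools 1 spread over the 4 genotypes, although wt-/mt- was the most variable. With 1 weight per genotype, 1 gene rose against wt+/mt+ (Mybbp1a), 0 against wt+/mt- and 4 against wt-/mt+ (Nop2, Rrp9, Mybbp1a and Grwd1), where 7.56%, 3.48% and 8.06% of kept genes were called. At an unadjusted p under 0.05 in that weighted fit, 12, 11 and 18 of the 41 passed in these comparisons, and 25.5%, 19.6% and 24.6% of kept genes did. The calls that held without any 1 of the 12 arrays were 3 of 11 against wt+/mt+ (Mybbp1a, Gar1 and Grwd1), 2 of 9 against wt+/mt- (Mybbp1a and Grwd1) and 5 of 15 against wt-/mt+ (Nop2, Rrp9, Mybbp1a, Gnl3 and Grwd1). The share of all called kept genes that held in this way was not counted.

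**Figure D2:**
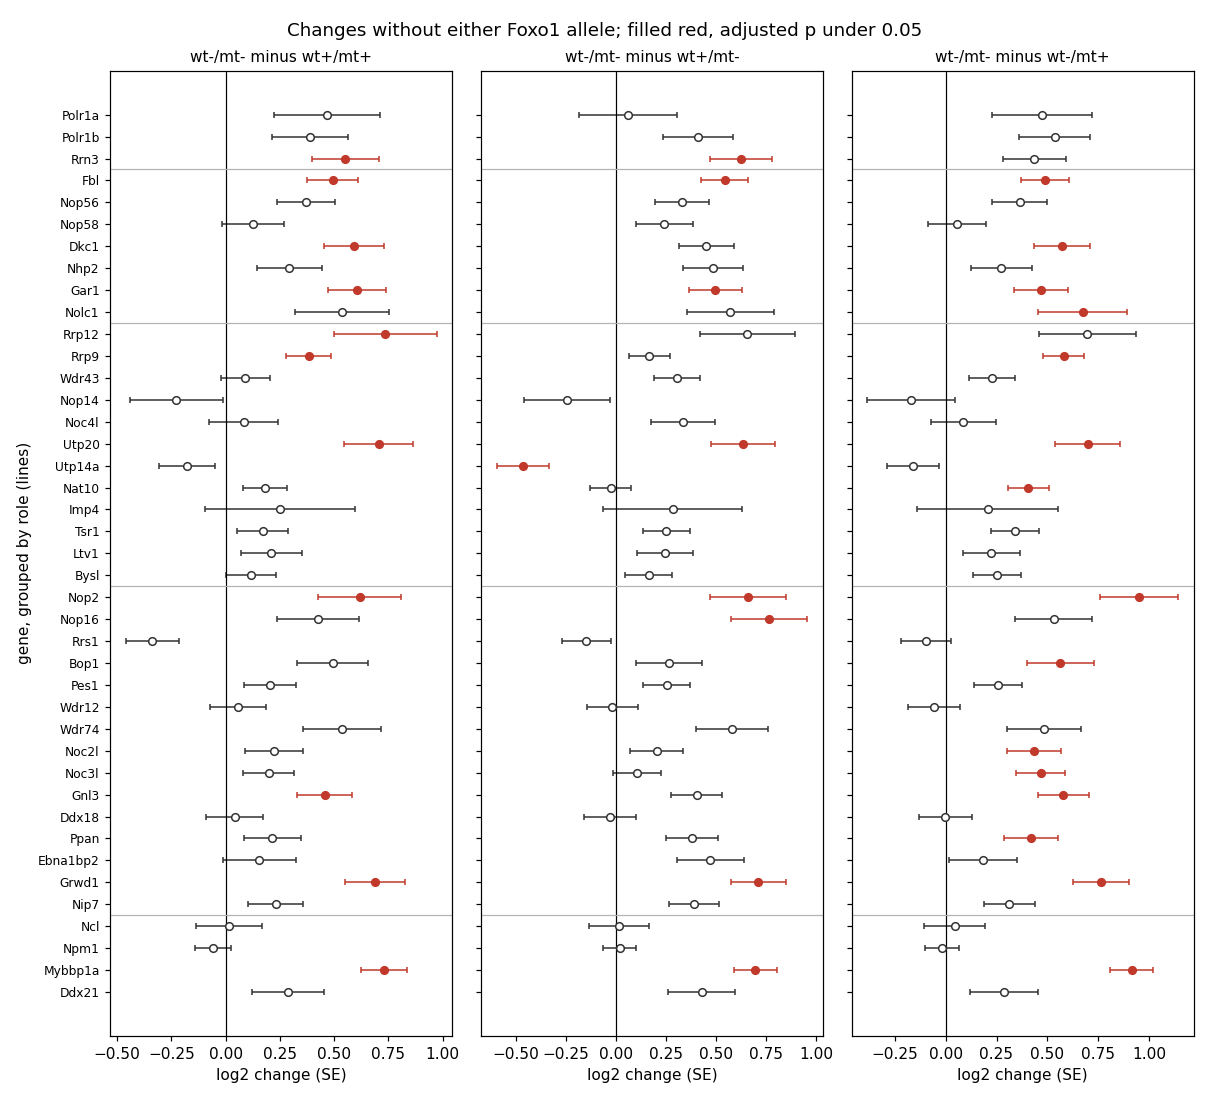
Log2 change of each of the 41 genes (points) with its standard error (bars) in wt-/mt- against wt+/mt+, wt+/mt- and wt-/mt+ (panels); filled red points have an adjusted p under 0.05. Changes run between -0.47 and 0.95, most of them above 0, and the only called fall is Utp14a against wt+/mt-.

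Promoter sequences were searched for the E-box, which MYC and related factors bind. RefSeq promoters of GRCm38.p6 (250 bases before to 50 after the gene start) matched 36 of the 41 genes; Npm1, Fbl, Rrp12, Rrs1 and Bop1 were not matched. The letters CACGTG, which read the same on both strands, occurred in 10 of the 36 (27.8%), against 8.09% of the 27025 symbols in the table, counted by symbol as the members are (7.15% of its 32851 promoters). Of 9 genes that rose against wt+/mt+ and had a promoter 5 held it, and of the other 27 also 5. Of 15 that rose in any of the 3 wt-/mt- comparisons 5 held it, and of the other 21 also 5. The 5 that rose are shown with Pes1, a large subunit factor that was not called, for contrast, with the E-box in capitals. Each window is written along the strand of its gene.
Nop2, chr6:125131811-125131840, plus strand, 60 bases before the start: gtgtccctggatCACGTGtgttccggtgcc
Mybbp1a, chr11:72441355-72441376, plus strand, 41 bases after the start: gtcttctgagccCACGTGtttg
Rrn3, chr16:13780472-13780501, plus strand, 215 bases before the start: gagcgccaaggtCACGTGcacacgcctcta
Rrn3, chr16:13780639-13780668, plus strand, 48 bases before the start: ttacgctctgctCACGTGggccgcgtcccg
Utp20, chr10:88826765-88826789, minus strand, 38 bases after the start: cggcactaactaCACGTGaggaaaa
Grwd1, chr7:45830740-45830767, minus strand, 35 bases after the start: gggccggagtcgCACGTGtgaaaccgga
Pes1, chr11:3963965-3963994, plus strand, 3 bases after the start: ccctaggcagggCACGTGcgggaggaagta

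The other E-box genes were Wdr43, Imp4, Tsr1 and Ltv1, and Rrn3 held the motif at 2 places. The forkhead element GTAAACA, searched on both strands and chosen after results were known, was found in 0 of the 36 promoters and for 4.05% of all symbols (3.65% of all promoters). A match is a description of letters, and the absence of one says only that they are not in this window.

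RNA polymerase I genes rose in 1 of 3 cases against wt+/mt+ and against wt+/mt-, and in 0 against wt-/mt+. Of all kept genes 12.2%, 6.35% and 9.75% rose in these comparisons, in the order given. Rrn3, the initiation factor that recruits the polymerase to the ribosomal DNA promoter, read 9.51, 9.58 and 10.16 (log2) on the wt-/mt- arrays, 9.31, 9.29 and 9.35 on wt-/mt+, 9.06, 9.14 and 9.20 on wt+/mt- and 9.28, 9.04 and 9.29 on wt+/mt+ arrays. All wt-/mt- arrays were above the other 9, with replicate 3 far above. It rose by 0.55 against wt+/mt+ (SE 0.15, limma adjusted p = 0.0279) and by 0.62 against wt+/mt- (SE 0.15, adjusted p = 0.0235), and its change against wt-/mt+ was 0.44 (SE 0.15, adjusted p = 0.0678). The first call ended without any 1 of the wt+/mt+ arrays (0.47 to 0.59), and the second without wt+/mt- replicate 1 or 2 (0.59 to 0.62). Without wt-/mt- replicate 3, the change against wt+/mt+ was 0.35. Polr1a and Polr1b, the 2 largest subunits of the polymerase, were not called. On wt-/mt- replicate 1 Polr1a read 9.10, below every wt+/mt+ array, while replicates 2 and 3 read 10.28 and 10.02. Its change was 0.47 against wt+/mt+, 0.06 against wt+/mt- and 0.47 against wt-/mt+. Its other bright probe sets gave 0.71 and 0.42, 0.67 and 0.19, and 0.66 and 0.45 in the same order, so its size against wt+/mt- differed between probe sets.

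SnoRNP genes held 3 rises of 7 against wt+/mt+, 2 against wt+/mt- and 4 against wt-/mt+. Of all kept genes 12.2%, 6.35% and 9.75% rose there. With so few genes per role, the role groups are not ranked. Fbl encodes fibrillarin, the methyltransferase of box C/D particles. It read 13.09, 12.85 and 13.11 (log2) on the wt-/mt- arrays, 12.47, 12.49 and 12.63 on wt-/mt+, 12.25, 12.60 and 12.57 on wt+/mt- and 12.54, 12.48 and 12.55 on wt+/mt+ arrays. The wt-/mt- arrays did not overlap with the others. Fbl rose by 0.49 against wt+/mt+ (SE 0.12, limma adjusted p = 0.0147), by 0.54 against wt+/mt- (SE 0.12, adjusted p = 0.0136) and by 0.49 against wt-/mt+ (SE 0.12, adjusted p = 0.0157). The first call ended without wt+/mt+ replicate 2 (0.47), the second without wt+/mt- replicate 1 (0.43) and the last without wt-/mt+ replicate 1 or 2 (0.46 to 0.47).

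Of the pseudouridylation particles (box H/ACA), Gar1 and Dkc1 were called and Nhp2 was not. Gar1, a core protein, read 12.52, 12.56 and 12.72 (log2) on the wt-/mt- arrays, 12.12, 12.03 and 12.25 on wt-/mt+, 11.85, 12.15 and 12.31 on wt+/mt- and 12.15, 11.96 and 11.87 on wt+/mt+ arrays. Every wt-/mt- array lay above the other 9, and wt+/mt- was wide. Gar1 rose by 0.60 against wt+/mt+ (SE 0.13, limma adjusted p = 0.00997), by 0.50 against wt+/mt- (SE 0.13, adjusted p = 0.0316) and by 0.47 against wt-/mt+ (SE 0.13, adjusted p = 0.0298). Its call against wt+/mt- ended without any 1 of 5 arrays (0.37 to 0.52), and that against wt-/mt+ without any 1 of 3 (0.41 to 0.46).

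Dkc1 encodes dyskerin, the pseudouridine synthase. It read 12.38, 12.46 and 12.83 (log2) on the wt-/mt- arrays, 11.87, 11.93 and 12.15 on wt-/mt+, 12.03, 12.12 and 12.17 on wt+/mt- and 12.15, 11.92 and 11.82 on wt+/mt+ arrays. No wt-/mt- array overlapped with another genotype. Dkc1 rose by 0.59 against wt+/mt+ (SE 0.14, limma adjusted p = 0.0132) and by 0.57 against wt-/mt+ (SE 0.14, adjusted p = 0.0155), and its change of 0.45 against wt+/mt- had an adjusted p = 0.0512. Its other bright probe sets gave 0.11 and 0.54 against wt+/mt+, and 0.24 and 0.64 against wt-/mt+. The first call ended without wt+/mt+ replicate 2 or 3 (0.52 to 0.57) and that against wt-/mt+ without wt-/mt+ replicate 1 or 2 (0.52 to 0.54). Nolc1, which encodes the snoRNP chaperone Nopp140, rose by 0.67 against wt-/mt+ (SE 0.22, adjusted p = 0.050), and leaving out any 1 of 11 arrays ended the call (0.48 to 0.72). Nop56, Nop58 and Nhp2, also core snoRNP proteins, were called in none.

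Small subunit factors held 3 rises of 12 against wt+/mt+, 1 rise and 1 fall against wt+/mt- and 3 rises against wt-/mt+. Shares over all kept genes were 12.2% rises, 6.35% rises and 8.22% falls, and 9.75% rises, in the same order. Utp20, a component of the small subunit processome, read 9.39, 9.39 and 9.97 (log2) on the wt-/mt- arrays, 8.86, 8.78 and 9.02 on wt-/mt+, 9.00, 9.02 and 8.84 on wt+/mt- and 9.07, 8.76 and 8.81 on wt+/mt+ arrays. The wt-/mt- arrays lay above the other 9, which overlapped with each other, and wt-/mt- replicate 3 stood above its 2 partners. Utp20 rose by 0.71 against wt+/mt+ (SE 0.16, limma adjusted p = 0.0113), by 0.63 against wt+/mt- (SE 0.16, adjusted p = 0.0249) and by 0.70 against wt-/mt+ (SE 0.16, adjusted p = 0.0124). The call against wt+/mt+ ended without wt+/mt+ replicate 2 (0.65), that against wt-/mt+ without wt-/mt+ replicate 2 (0.65), and that against wt+/mt- without any 1 wt+/mt- array (0.58 to 0.67).

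Rrp9, the protein specific to the U3 snoRNP, read lower on wt-/mt+ than on wt+/mt- arrays as well, without overlap. Rrp9 was not called there (limma adjusted p = 0.108), and 17.6% of all kept genes lay lower without overlap. It read 9.19, 9.46 and 9.11 (log2) on the wt-/mt- arrays, 8.69, 8.65 and 8.67 on wt-/mt+, 9.06, 9.18 and 9.02 on wt+/mt- and 8.83, 8.89 and 8.89 on wt+/mt+ arrays. The wt-/mt+ arrays were lowest, and wt-/mt- overlapped with wt+/mt-. Rrp9 rose by 0.38 against wt+/mt+ (SE 0.10, limma adjusted p = 0.0237) and by 0.58 against wt-/mt+ (SE 0.10, adjusted p = 0.00351), with a change of 0.16 against wt+/mt- (adjusted p = 0.318). The first call ended without any 1 of the wt+/mt+ arrays (0.36 to 0.39).

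Nat10 and Rrp12 were called in 1 comparison each. Nat10, the acetyltransferase of 18S ribosomal RNA, read 9.21, 9.31 and 9.34 (log2) on the wt-/mt- arrays, 8.82, 8.80 and 9.01 on wt-/mt+, 9.45, 9.31 and 9.18 on wt+/mt- and 9.10, 9.16 and 9.06 on wt+/mt+ arrays. It rose against wt-/mt+ by 0.41 (SE 0.10, limma adjusted p = 0.0177), a call that ended without wt-/mt+ replicate 1 or 2 (0.37 to 0.38). The wt-/mt- arrays lay above those of wt-/mt+ and wt+/mt+ and overlapped with wt+/mt-. Rrp12, an export factor of the small subunit precursor, read 7.98, 8.40 and 9.12 (log2) on the wt-/mt- arrays, 7.75, 7.82 and 7.83 on wt-/mt+, 7.51, 8.02 and 8.00 on wt+/mt- and 7.79, 7.75 and 7.74 on wt+/mt+ arrays. The wt-/mt- arrays were far apart, with replicate 3 highest. Rrp12 rose by 0.74 against wt+/mt+ (SE 0.24, adjusted p = 0.0468). The change was 0.43 without wt-/mt- replicate 3, and the call ended without any 1 of 10 arrays.

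Utp14a, another processome component, went the other way. It read 10.87, 10.87 and 10.77 (log2) on the wt-/mt- arrays, 10.87, 11.24 and 10.87 on wt-/mt+, 11.29, 11.49 and 11.12 on wt+/mt- and 10.90, 11.04 and 11.09 on wt+/mt+ arrays. The wt+/mt- arrays were high and the wt-/mt- arrays low, without overlap between them. Utp14a fell against wt+/mt- by 0.47 (SE 0.13, limma adjusted p = 0.0364). Leaving out any 1 of 6 arrays ended the call, and the change was -0.37 without wt+/mt- replicate 2. The remaining small subunit factors, Wdr43, Nop14, Noc4l, Imp4, Tsr1, Ltv1 and Bysl, were called in none of the 3.

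**Figure D3:**
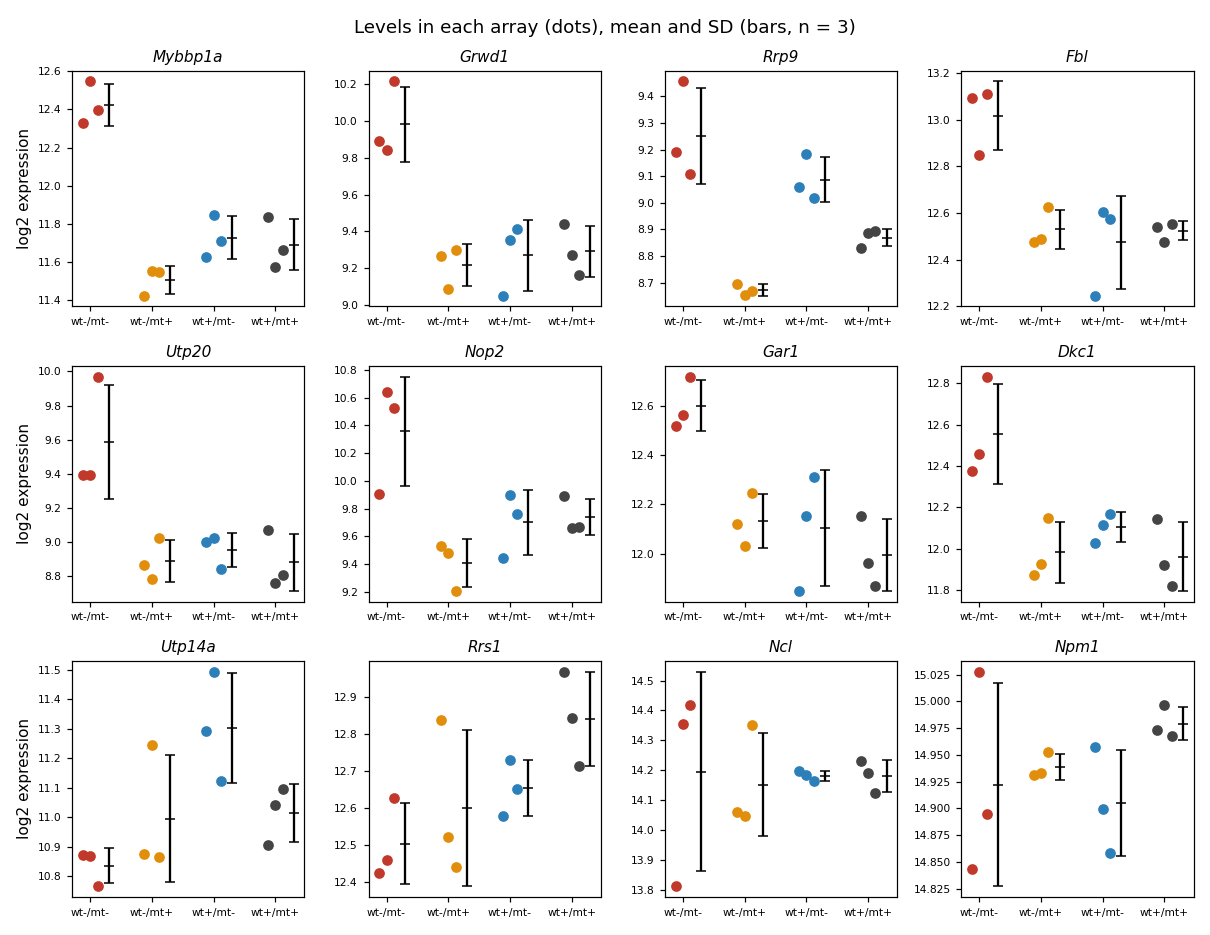
Log2 expression of 12 ribosome biogenesis genes on each array (points) in wt-/mt-, wt-/mt+, wt+/mt- and wt+/mt+, with mean and SD (bars, n = 3). Mybbp1a, Grwd1, Fbl, Utp20, Gar1 and Dkc1 show the wt-/mt- arrays above all others, Rrp9 overlaps with wt+/mt-, Ncl overlaps between all genotypes, and the wt-/mt- arrays of Npm1 overlap with those of every other genotype.

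Large subunit factors held 3 rises of 15 against wt+/mt+, 3 against wt+/mt- and 7 against wt-/mt+. Rises over all kept genes came to 12.2%, 6.35% and 9.75% in these comparisons. Grwd1, a chaperone of ribosomal protein L3, read 9.89, 9.84 and 10.21 (log2) on the wt-/mt- arrays, 9.27, 9.09 and 9.30 on wt-/mt+, 9.05, 9.35 and 9.41 on wt+/mt- and 9.44, 9.27 and 9.17 on wt+/mt+ arrays. The gap between wt-/mt- and the other arrays was wider than the range of any of those genotypes. Grwd1 rose by 0.69 against wt+/mt+ (SE 0.14, limma adjusted p = 0.00676), by 0.71 against wt+/mt- (SE 0.14, adjusted p = 0.00818) and by 0.76 against wt-/mt+ (SE 0.14, adjusted p = 0.00381). Its other bright probe sets gave changes of 0.54 to 1.12.

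Nop2, a cytosine methyltransferase of 28S ribosomal RNA, had the largest single rise. It read 9.91, 10.64 and 10.53 (log2) on the wt-/mt- arrays, 9.53, 9.48 and 9.21 on wt-/mt+, 9.44, 9.90 and 9.76 on wt+/mt- and 9.89, 9.66 and 9.67 on wt+/mt+ arrays. Replicate 1 of wt-/mt- lay just above the highest wt+/mt+ and wt+/mt- arrays, and replicates 2 and 3 far above. Nop2 rose by 0.95 against wt-/mt+ (SE 0.19, limma adjusted p = 0.00684), by 0.62 against wt+/mt+ (SE 0.19, adjusted p = 0.0406) and by 0.66 against wt+/mt- (SE 0.19, adjusted p = 0.0427). The first of these held without any 1 array, the second ended without any 1 of 9 (0.48 to 0.69) and the last without any 1 of 11 (0.52 to 0.76).

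Gnl3 encodes nucleostemin, a nucleolar GTPase abundant in stem and tumour cells. It read 11.78, 11.92 and 11.62 (log2) on the wt-/mt- arrays, 11.15, 11.17 and 11.27 on wt-/mt+, 11.13, 11.52 and 11.46 on wt+/mt- and 11.44, 11.18 and 11.33 on wt+/mt+ arrays. All wt-/mt- arrays were above the rest, by the least on replicate 3. Gnl3 rose by 0.58 against wt-/mt+ (SE 0.13, limma adjusted p = 0.0101) and by 0.46 against wt+/mt+ (SE 0.13, adjusted p = 0.0271), with a change of 0.40 against wt+/mt- (adjusted p = 0.0560). The call against wt+/mt+ ended without any 1 of 3 arrays (0.38 to 0.46).

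Nop16, an assembly factor, was called against wt+/mt- alone of the 3. It read 10.56, 11.40 and 11.22 (log2) on the wt-/mt- arrays, 10.47, 10.60 and 10.52 on wt-/mt+, 10.06, 10.46 and 10.37 on wt+/mt- and 10.61, 10.57 and 10.74 on wt+/mt+ arrays. Replicate 1 of wt-/mt- lay among the wt-/mt+ and below the wt+/mt+ arrays. Nop16 rose by 0.77 against wt+/mt- (SE 0.19, limma adjusted p = 0.0233), and the call ended without wt+/mt- replicate 1 (0.65). Bop1, a subunit of the PeBoW complex, rose by 0.56 against wt-/mt+, Noc3l by 0.47, Noc2l by 0.44 and Ppan by 0.42, the last 3 being assembly factors (adjusted p between 0.0194 and 0.0435). These 4 calls ended without any 1 of 5, 2, 9 and 7 arrays, in the order given, with changes between 0.28 and 0.56.

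The other large subunit factors were called in none of the 3, among them Pes1 and Wdr12, the partners of Bop1, and Wdr74, Ddx18, Ebna1bp2 and Nip7. Rrs1, which helps load the 5S particle, had the lowest change against wt+/mt+, -0.34 (SE 0.12, limma adjusted p = 0.0691). It read 12.42, 12.46 and 12.63 (log2) in wt-/mt- and 12.97, 12.84 and 12.72 in wt+/mt+, without overlap. Its other bright probe set gave 0.15, so the direction differed between its probe sets.

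The abundant nucleolar proteins split. Ncl (nucleolin) and Npm1 (nucleophosmin) were the only 2 of the 41 genes with a mean above 14 (log2). Ncl read 13.81, 14.36 and 14.42 on the wt-/mt- arrays, 14.06, 14.05 and 14.35 on wt-/mt+, 14.20, 14.19 and 14.16 on wt+/mt- and 14.23, 14.19 and 14.12 on wt+/mt+ arrays. The wt-/mt- arrays lay on both sides of all others, and the change against wt+/mt+ was 0.01 (SE 0.15, limma adjusted p = 0.956). Other probe sets of Ncl, 1 of them dim, gave -0.31 to 0.68 in that comparison, so its direction could not be read. Npm1 read 14.84, 15.03 and 14.90 on the wt-/mt- arrays, 14.93, 14.93 and 14.95 on wt-/mt+, 14.96, 14.90 and 14.86 on wt+/mt- and 14.97, 15.00 and 14.97 on wt+/mt+ arrays. Its change against wt+/mt+ was -0.06 (SE 0.08, adjusted p = 0.643). Ddx21, a nucleolar RNA helicase, was not called.

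Mybbp1a, the Myb-binding protein 1a that takes part in transcription and processing of ribosomal RNA, had the largest F statistic of the 41 over the 4 genotypes (28.5, adjusted p = 0.00127). It read 12.33, 12.55 and 12.40 (log2) on the wt-/mt- arrays, 11.42, 11.55 and 11.55 on wt-/mt+, 11.62, 11.85 and 11.71 on wt+/mt- and 11.84, 11.58 and 11.66 on wt+/mt+ arrays. The lowest wt-/mt- array was well above the highest of the other 9. Mybbp1a rose by 0.73 against wt+/mt+ (SE 0.11, limma adjusted p = 0.00140), by 0.70 against wt+/mt- (SE 0.11, adjusted p = 0.00264) and by 0.91 against wt-/mt+ (SE 0.11, adjusted p = 0.000335). With 1 weight per genotype the adjusted p values were 0.0217, 0.0534 and 0.00719. Its other bright probe set gave 0.77 to 1.12. Of the 41 genes, 11 passed the F test (19.2% of kept genes): Mybbp1a, Grwd1, Rrp9, Fbl, Utp20, Nop2, Gar1, Dkc1, Nat10, Gnl3 and Rrn3.

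With 1 allele left, 0 of the 41 genes were called against wt+/mt+. For loss of the wild-type allele with the mutant present (wt-/mt+ against wt+/mt+), limma called 0 of the 41 and 0.0% of kept genes, while at an unadjusted p under 0.05 it passed 2 of the 41 and 412 kept genes, and with 1 weight per genotype it called 0 of the 41 and 19 kept genes (0.166%). The median change was -0.04, against 0.04 over all kept genes. All wt-/mt+ arrays lay below the wt+/mt+ arrays for 9 of the 41 (6.64% of kept genes), namely Npm1, Nop2, Rrp9, Mybbp1a, Noc2l, Nat10, Ppan, Nip7 and Bysl, and above them for 1 (14.8%). The changes of these 9 ran from -0.33 (Nop2) to -0.04 (Npm1), and each had an adjusted p = 1.00. A p that misses the threshold does not show that the levels were equal.

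For loss of the mutant allele with the wild type present (wt+/mt- against wt+/mt+), limma called 0 of the 41, where 0.183% of kept genes were called. At an unadjusted p under 0.05 it passed 1 of the 41 and 1704 kept genes, and with 1 weight per genotype it called 0 and 950 (8.29%). The median change was -0.03, against 0.04 over all kept genes. All arrays lay above for 4 of the 41 (21.8% of kept genes) and below for 3 (11.4%).

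The genotypes with a single allele were also set against each other (wt-/mt+ against wt+/mt-). Limma called 0 of the 41, where 0.0873% of kept genes were called, and at an unadjusted p under 0.05 it passed 4 of the 41 and 1881 kept genes. With 1 weight per genotype it called 2 of the 41 lower, Nat10 and Rrp9, where 4.35% of kept genes were called lower. The change of Nat10 was -0.43 (SE 0.10, limma adjusted p = 0.102, and 0.0217 with weights), and that of Rrp9 was -0.42 (SE 0.10, adjusted p = 0.108, and 0.0151 with weights). Both had no overlap between the genotypes, as had 6 genes in all on the lower side (17.6% of kept genes) and 3 on the higher side (14.2%).

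Whether losing both alleles differs from the sum of the single losses was tested as an interaction. Mybbp1a was the 1 gene of 41 called, where 3.14% of kept genes were called and 0.838% higher. Losing the mutant allele changed it by 0.91 without the wild-type allele and by 0.04 with it, a difference of 0.88 (SE 0.15, limma adjusted p = 0.0126, and 0.0324 with weights). It ranged from 0.81 to 0.94 with 1 array left out, and without wt+/mt- replicates 1 and 2 it was 0.90 with an adjusted p = 0.105. At an unadjusted p under 0.05, 17 of the 41 passed and 18.4% of kept genes did. The largest value was that of Nop2, 0.99 (adjusted p = 0.0790), followed by Mybbp1a, Nop16 at 0.87 (adjusted p = 0.114) and Grwd1 at 0.79 (adjusted p = 0.0554). The median was 0.41, against -0.05 over all kept genes.

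The 41 genes also varied among arrays of 1 genotype. Their median relative to the wt+/mt+ mean was 0.16, 0.38 and 0.31 (log2) on the wt-/mt- arrays, -0.07, -0.11 and 0.01 on wt-/mt+, -0.15, 0.08 and 0.02 on wt+/mt- and 0.11, -0.04 and -0.05 on wt+/mt+ arrays. The wt-/mt- medians were above all others, by the least between wt-/mt- replicate 1 and wt+/mt+ replicate 1. The medians over all kept genes lay between -0.04 and 0.09. On wt+/mt- replicate 1, the array with the highest actin ratio, 30 of the 41 were the lowest of their genotype (37.8% of kept genes), and on wt+/mt- replicate 2 none was. On wt+/mt+ replicate 1, 29 were the highest of their genotype (25.3% of kept genes).

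**Figure D4:**
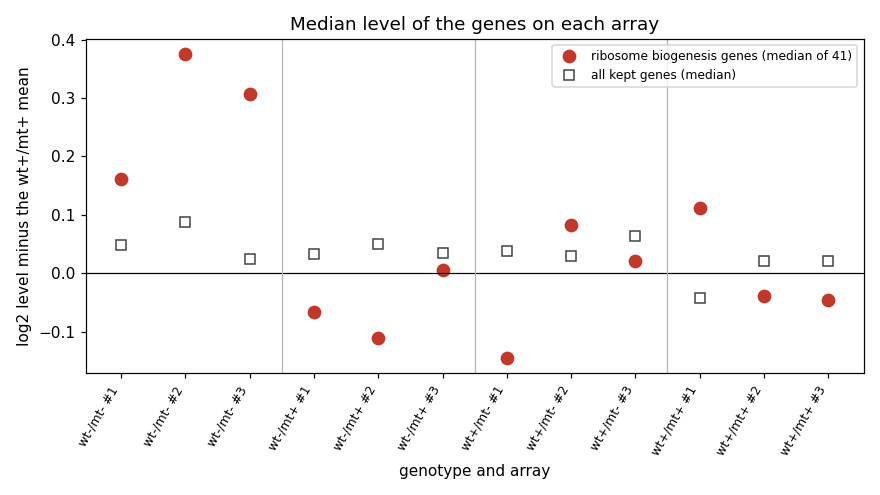
Median log2 level relative to the wt+/mt+ mean on each array, for the 41 ribosome biogenesis genes (filled circles) and for all kept genes (open squares). The 3 wt-/mt- circles sit at 0.16, 0.38 and 0.31, above the other 9, while the squares stay between -0.04 and 0.09.

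The 2 arrays with the highest actin ratio enter the comparison with wt+/mt-. Without wt+/mt- replicates 1 and 2, 0 of the 41 and 118 kept genes were called there, against 9 and 1670 with them, and with the actin ratio as a covariate 1 and 287 were. Without these 2 arrays the change of Mybbp1a was 0.71 (limma adjusted p = 0.0820) and that of Grwd1 was 0.57 (adjusted p = 0.247). Over all 20 alternatives that of Mybbp1a was at least 0.63 and that of Grwd1 at least 0.55. That setting leaves 1 wt+/mt- array, which is assumed to vary like the other genotypes. The comparisons of wt-/mt- with wt+/mt+ and with wt-/mt+ do not use the wt+/mt- means, and gave 9 and 14 calls (2049 and 1929 over kept genes) without these 2 arrays. The low bioC signal is shared by both genotypes without the mutant allele, and its part in the results was not tested. Where wt-/mt- is set against wt+/mt+ or wt-/mt+, the bioC signal and loss of the mutant allele go together and cannot be told apart.

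On wt-/mt- replicate 1, genes of chromosome 1 were low as a group, a pattern found after the values were seen. The median of the 643 kept genes of chromosome 1 there was -0.30 (log2, relative to the mean of the 12 arrays), against -0.05 to 0.09 on the 9 arrays of the other genotypes. The 6 ribosome biogenesis genes on chromosome 1 are Ncl, Nop58, Rrs1, Wdr12, Ddx18 and Imp4. All 6 lay below the mean of the other 9 arrays on that array (median -0.32), against 5 of the 35 genes on other chromosomes (median 0.25). On wt-/mt- replicates 2 and 3, 1 of the 6 was below on each, with medians of 0.18 and 0.24. Other chromosomes stood apart on single wt-/mt- arrays too: on replicate 3, chromosome 16 (0.29), which holds Rrn3, chromosome 19 (0.21), which holds Rrp12, Wdr74, Nolc1 and Noc3l, chromosome 8 (-0.30), which holds Nip7, and chromosome 3 (-0.23), which holds Gar1. Chromosome 6, which holds Nop2 and Polr1a, was at 0.23 on replicate 2 and 0.13 on replicate 3, against -0.11 to -0.02 on the arrays of the other genotypes. With each gene centred on its chromosome's median on each array, 9 of the 41 were called against wt+/mt+, 11 against wt+/mt- and 13 against wt-/mt+, and of the 11458 kept genes 2555, 1690 and 2453 were. Nop2 lost its calls against wt+/mt+ (0.42, limma adjusted p = 0.0928) and wt+/mt- (0.52, adjusted p = 0.0616) in that setting.

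**Figure D5:**
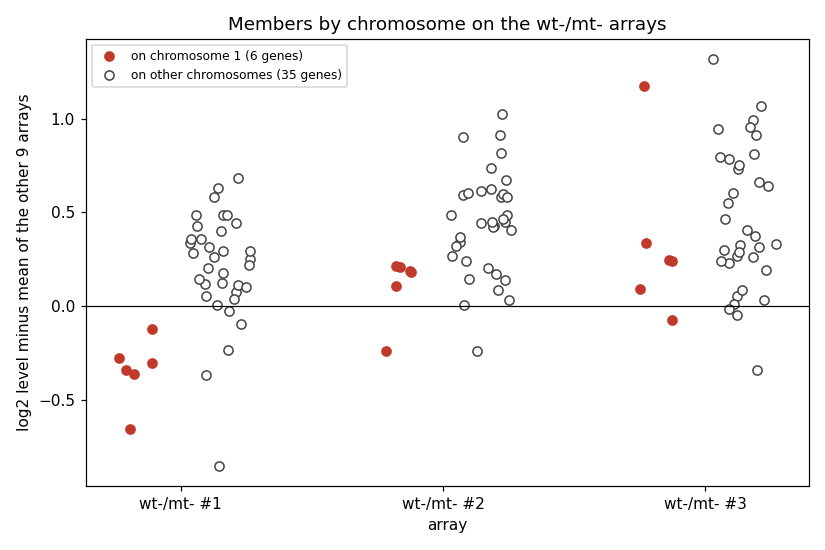
Log2 level of each of the 41 genes on the 3 wt-/mt- arrays minus its mean over the 9 arrays of the other genotypes, for the 6 genes on chromosome 1 (filled red) and the 35 on other chromosomes (open). On replicate 1 all 6 red points are below 0, with a median of -0.32, and on replicates 2 and 3 the red medians are 0.18 and 0.24.

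Most genes have more than 1 probe set, which allows the chosen one to be compared with the rest. Of the 41, 13 had 1 probe set and 26 had another one above the array median in at least 3 arrays. For genes called against wt+/mt+, 6 of 6 such probe sets had the sign of the chosen one (0.11 to 0.82), against wt+/mt- 5 of 5 (-0.28 to 0.90, Utp14a included) and against wt-/mt+ 11 of 11 (0.24 to 1.12). They came from 4 of the 11, 4 of the 9 and 8 of the 15 called genes, some with more than 1. The other called genes had no such probe set to compare.

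A second list of ribosome biogenesis genes, outside the 41, had calls in both directions. Of 128 listed, 124 were on the array and kept. Against wt+/mt+, 20 rose and 9 fell (median 0.11), against wt+/mt- 18 rose and 2 fell (median 0.15), and against wt-/mt+ 22 rose and 8 fell (median 0.10). Over all kept genes 12.2% rose and 9.94% fell against wt+/mt+, 6.35% and 8.22% against wt+/mt-, and 9.75% and 11.1% against wt-/mt+. With 1 weight per genotype these were 3 and 2, 0 and 1, and 5 and 1. The 5 largest rises against wt+/mt+ were those of Ruvbl2 (1.10, SE 0.21), an ATPase of the complex that assembles snoRNPs, Wdr18 (0.87, SE 0.19), Tsr2 (0.85, SE 0.24), the escort of ribosomal protein S26, Nle1 (0.71, SE 0.19) and Exosc2 (0.68, SE 0.17), a subunit of the RNA exosome. The 5 largest falls were those of Taf1b (-0.80, SE 0.26) and Taf1d (-0.55, SE 0.15), subunits of the factor SL1 at the RNA polymerase I promoter, Nop53 (-0.71, SE 0.15), Polr1d (-0.59, SE 0.13), a subunit of RNA polymerases I and III, and Nol8 (-0.57, SE 0.17).

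Nop53, which recruits the exosome during large subunit maturation, fell in all 3 comparisons. It read 12.28, 12.54 and 11.88 (log2) on the wt-/mt- arrays, 12.90, 13.12 and 12.95 on wt-/mt+, 13.18, 13.12 and 13.00 on wt+/mt- and 12.85, 13.05 and 12.93 on wt+/mt+ arrays. It was below all other arrays in wt-/mt-, with a change of -0.87 against wt+/mt- and -0.76 against wt-/mt+. Against wt+/mt- the largest rises were those of Rpf1 (0.98) and Exosc2 (0.92), and the other fall was that of Efl1 (-0.36), a GTPase of late large subunit maturation. Against wt-/mt+ Ruvbl2 (1.13) and Tsr2 (0.80) rose most, and Taf1b (-0.99) fell most. In the interaction, Aatf had a value of 0.55 and Nop53 one of -0.92, both called. With 1 allele left, 0 of the 124 were called in any of the 3 comparisons, and with 1 weight per genotype 0, 3 and 1 were, for wt-/mt+ against wt+/mt+, wt+/mt- against wt+/mt+ and wt-/mt+ against wt+/mt-. Those 3 comparisons gave medians of -0.01, -0.06 and 0.06.

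MYC partners and other MYC target genes were read as neighbours of the list. Of 11 MYC network genes 10 were kept, and 2 fell in each of the 3 wt-/mt- comparisons, with 0 rises. Of all kept genes 9.94% fell against wt+/mt+, 8.22% against wt+/mt- and 11.1% against wt-/mt+. The 2 genes are Mxd4 and Mxi1, antagonists of MYC that pair with Max, and they are named because the count is small. Mxd4 read 9.02, 9.61 and 10.66 (log2) on the wt-/mt- arrays, 11.19, 10.90 and 11.11 on wt-/mt+, 11.08, 10.97 and 11.01 on wt+/mt- and 11.36, 11.05 and 10.87 on wt+/mt+ arrays. It fell by 1.33 against wt+/mt+ (SE 0.31, limma adjusted p = 0.0141), and Mxi1 fell by 0.36 (SE 0.11, adjusted p = 0.0359). With 1 weight per genotype 1, 0 and 1 of these genes fell against wt+/mt+, wt+/mt- and wt-/mt+. Of 26 MYC target genes outside ribosome biogenesis, 23 were kept, and 9, 11 and 8 rose in the 3 comparisons, with 0 falls. The medians were 0.52, 0.55 and 0.49, and 12.2%, 6.35% and 9.75% of all kept genes rose. With weights 3, 0 and 4 of the 23 rose, where 7.56%, 3.48% and 8.06% of kept genes were called in either direction. Among the 23, Gart and Shmt2 are named after their values were seen. Gart, an enzyme of purine synthesis, rose by 0.99 (SE 0.15) against wt+/mt+. Shmt2, the mitochondrial serine hydroxymethyltransferase, rose by 1.2 (SE 0.27) in the same comparison.

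Cell type markers moved with the wt-/mt- arrays as well. Of 9 B cell markers kept, 5 fell against wt+/mt+ (Cd79b, Cd22, Ebf1, Ighm and Cd72), and the mean of the list was 11.3 to 12.0 (log2) in wt-/mt- and 12.1 to 12.2 in wt+/mt+. Of all kept genes 9.94% fell and 12.2% rose in that comparison. Of 10 myeloid markers 6 were kept, and 3 rose (Cd68, Mpeg1 and Cybb), with a mean over the list of 6.73 to 7.29 in wt-/mt- and 5.99 to 6.46 in the other genotypes. The median change of the 6 was 1.11 against wt+/mt+, 0.46 against wt+/mt- and 1.30 against wt-/mt+. Csf1r, Adgre1 and Fcgr1 were not called (0.05, -0.38 and 0.30 against wt+/mt+). Of the 4 that were not kept, Itgam, Lyz2 and Cd14 read between 4.11 and 5.92 on every array, and Mrc1 between 5.63 and 6.13. Of 4 germinal center markers kept 2 fell, and of 4 plasma cell markers 1 did. T cell, stromal and erythroid lists had 0 calls in any comparison. In bulk RNA, fewer cells of a type and less RNA per cell cannot be told apart, and the part of these markers in the ribosome biogenesis results was not tested.

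Over the 12 arrays most of the 41 genes followed each other, given here as a description since the arrays share genotypes and normalization. The correlation of a gene with the mean of the others had a median of 0.73, from 0.98 for Nolc1 to -0.52 for Utp14a, and 9 genes were below 0.5 (Ncl, Ddx18, Nat10, Wdr43, Wdr12, Nop14, Npm1, Rrs1 and Utp14a). Outside the lists, the 5 kept genes closest to the mean of the 41 were Chchd4 (0.97), Eif1a (0.96), Timm8a1 (0.96), Eftud2 (0.95) and Rcc2 (0.95). Chchd4 averaged 11.89 on the wt-/mt- arrays, 11.16 on wt-/mt+, 11.09 on wt+/mt- and 11.19 on wt+/mt+ arrays (log2, n = 3 each).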

How the data were processed

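The deposited tables hold log2 expression per probe set for 12 arrays. Per the submitters' processing notes the authors used RMA (version not given in the sources used here), and the base of the logarithm was inferred from the values (3.09 to 15.57). Total RNA was labelled with an Affymetrix 3' IVT kit, per the labels' protocols. RMA normalizes across arrays, so a shift shared by most genes is largely removed, and the number of arrays limits the precision. GEO's platform annotation gave the gene names: of 45101 probe sets, 34958 had 1 gene, 932 several and 9211 none. A gene was read from its probe set of highest mean and kept when above the array median in at least 3 arrays. Limma 3.58.1 was run in R 4.3.3 on the log2 values with 4 genotype means (lmFit, eBayes, Benjamini-Hochberg over 11458 genes), after being tested on simulated data. Errors are limma's standard errors (SE). Alternatives were 1 weight per genotype, other scalings, filters and probe set rules, the actin ratio, and arrays left out.

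The 41 genes and the lists were chosen with earlier results of these data known. Values on every array are given for Ncl, Npm1, Fbl, the 12 genes with the largest F, and up to 4 called rises and 4 falls per comparison. Of the second list, up to 5 and 5 against wt+/mt+ and 2 and 2 elsewhere are named. Array numbers run on across genotypes and pair nothing.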

Additional observations from a re-analysis of the deposited data

Results flagged for a closer look

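The effect of losing the mutant allele on Mybbp1a differed between cells without and with the wild-type allele, by an interaction test. It was 0.91 on the log2 scale without the wild-type allele and 0.04 with it, and the difference was 0.88 (SE 0.15, limma adjusted p = 0.0126). All 3 wt-/mt- arrays lay above all 3 wt-/mt+ arrays.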

How the results depend on the processing

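The counts of calls moved with the spread given to wt-/mt- and with single arrays of every genotype. With 1 weight per genotype, the calls among the 41 genes were 1 for wt-/mt- against wt+/mt+ (11 with a shared spread), 0 for wt-/mt- against wt+/mt- (9), 4 for wt-/mt- against wt-/mt+ (15), 2 for wt-/mt+ against wt+/mt- (0) and 3 in the F test (11). Without the 2 wt+/mt- arrays of highest actin ratio, wt-/mt- against wt+/mt- gave 0, the interaction 0 (1 in the main setting) and the F test 6. With the actin ratio as a covariate, wt-/mt- against wt+/mt- gave 1. The interaction gave 2 calls after quantile normalization and 3 with the mean of all probe sets. Over all kept genes, the F test called 19.2% with a shared spread and 13.4% with weights. Counts over all kept genes after quantile normalization or with the mean of all probe sets are not given here.

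Leaving out 1 array gave 3 to 18 calls for wt-/mt- against wt+/mt+ (lowest without wt+/mt+ replicate 2, also 7 and 5 without wt+/mt+ replicates 1 and 3, highest without wt-/mt- replicate 1). It gave 2 to 16 for wt-/mt- against wt+/mt- (2 and 4 without wt+/mt- replicates 1 and 2, 16 without wt-/mt- replicate 1) and 5 to 22 for wt-/mt- against wt-/mt+ (8 and 5 without wt-/mt+ replicates 1 and 2). It gave 0 to 0 for either single loss with the other allele present, 0 to 1 for wt-/mt+ against wt+/mt- (1 without wt-/mt- replicate 3), 1 to 5 for the interaction (5, 4 and 2 without wt-/mt- replicates 1, 2 and 3) and 5 to 15 in the F test (6 and 6 without wt+/mt+ replicates 2 and 3, 6 and 5 without wt-/mt+ replicates 1 and 2, 7 without wt+/mt- replicate 2). Counts over all kept genes with 1 array left out are not given here, so these ranges do not set the ribosome biogenesis genes apart. The cause was not tested. Of 720 values of called genes over 20 alternatives, 545 kept call and direction, 175 lost the call and 0 reversed. Genes called between 2 genotypes had no overlap between their arrays, so leaving out 1 array could not reverse their direction. No paired analysis was possible because array numbers are not shared between genotypes.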
